A study of Mus musculus with 24 samples.

Results

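The genes described here are 35 genes of neutrophils and their marrow precursors, with 3 genes of eosinophils and of histamine synthesis among them. They were taken by symbol from a table of raw read counts with 23420 entries, made from RNA of whole mouse cochleae. All 35 had an entry, and all 35 passed the filter on low counts, as did 16607 genes in all. The series holds 24 libraries in 8 groups of 3. All animals were CBA/Sca mice of 12 weeks. The groups cross exposure (1 h of noise between 6 and 12 kHz at a level of 100 dB SPL, or a sham exposure), period (night or day) and surgery (adrenalectomy, ADX, or a sham operation). They are night noise ADX, night sham exposure ADX, night noise sham-operated, night sham exposure sham-operated, day noise ADX, day sham exposure ADX, day noise sham-operated and day sham exposure sham-operated. Noise was given at zeitgeber time 15 h (night) or 3 h (day) and the cochleae were taken 2 h after it, per the series' design. The sample labels carry zeitgeber times of 23 h and 11 h instead, and the difference is not resolved in the sources used here. The series asked how adrenal hormones shape the time-dependent response of the ear to noise. The labels do not say whether the libraries of a group are separate animals, so a p-value below measures only the spread between libraries.

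Neutrophils are made in bone marrow, and their granules are filled in sequence. The azurophil granules with myeloperoxidase and the serine proteases are loaded at the promyelocyte stage, the secondary granules with lactoferrin and cathelicidin at the later myelocyte stage, and receptors such as Cxcr2 appear as the cells mature. In the mouse, the bone around the cochlea holds marrow, and whole-cochlea RNA can carry its transcripts. Adrenalectomy removes the adrenal source of corticosterone. Glucocorticoids are known to raise the number of circulating neutrophils and to lower that of circulating eosinophils and lymphocytes. In bulk RNA, fewer cells of a type and less RNA per cell cannot be told apart, and this holds for every level below.

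Several members sit side by side in the genome. S100a8 and S100a9 lie on chromosome 3 (GRCm38, 90668978 to 90670035 and 90692632 to 90695721), Prtn3 and Elane on chromosome 10, Fpr1 and Fpr2 on chromosome 17, and Trem1 and Trem3 elsewhere on chromosome 17. Ngp, Camp and Ltf share a stretch of chromosome 9. Mpo (chromosome 11, 87793581 to 87804413) and Epx (87864000 to 87875536), the peroxidases of neutrophils and of eosinophils, are near neighbours on chromosome 11. RefSeq promoter windows (GRCm38.p6, 250 bases before to 50 after the start) were at hand for 31 of the 35 members. The windows shown are those of Ngp and S100a9, among the highest members, of Fpr2 and Epx, which passed a test below, and of Mpo, the neighbour of Epx. Capitals mark matches to a C/EBP-like motif (TTNNGNAA, searched on both strands), after the factor family of Cebpe.

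Ngp (chr9:110419558-110419857, + strand): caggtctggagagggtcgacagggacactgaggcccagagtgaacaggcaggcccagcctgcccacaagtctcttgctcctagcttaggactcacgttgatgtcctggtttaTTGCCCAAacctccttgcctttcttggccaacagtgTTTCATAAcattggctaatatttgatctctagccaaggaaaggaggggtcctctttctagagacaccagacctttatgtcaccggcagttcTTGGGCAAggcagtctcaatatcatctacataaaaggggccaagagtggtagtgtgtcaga

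S100a9 (chr3:90695672-90695971, - strand): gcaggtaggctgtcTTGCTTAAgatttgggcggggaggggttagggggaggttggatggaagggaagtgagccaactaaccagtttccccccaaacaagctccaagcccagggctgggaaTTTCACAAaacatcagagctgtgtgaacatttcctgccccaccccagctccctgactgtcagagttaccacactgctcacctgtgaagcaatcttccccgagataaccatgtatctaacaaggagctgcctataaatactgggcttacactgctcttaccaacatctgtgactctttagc

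Fpr2 (chr17:17887574-17887873, + strand): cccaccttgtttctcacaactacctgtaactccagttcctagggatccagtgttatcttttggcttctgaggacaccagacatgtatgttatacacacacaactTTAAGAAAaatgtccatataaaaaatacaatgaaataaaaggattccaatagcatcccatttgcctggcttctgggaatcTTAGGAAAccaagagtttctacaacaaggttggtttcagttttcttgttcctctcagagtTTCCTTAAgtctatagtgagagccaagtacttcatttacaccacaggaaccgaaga

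Mpo (chr11:87793534-87793833, + strand): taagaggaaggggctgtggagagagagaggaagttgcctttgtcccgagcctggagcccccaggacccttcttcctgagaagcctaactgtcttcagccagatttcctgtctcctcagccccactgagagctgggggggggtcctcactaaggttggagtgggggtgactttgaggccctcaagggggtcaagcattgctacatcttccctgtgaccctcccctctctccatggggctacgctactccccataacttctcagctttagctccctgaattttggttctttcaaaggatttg

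Epx (chr11:87875487-87875786, - strand): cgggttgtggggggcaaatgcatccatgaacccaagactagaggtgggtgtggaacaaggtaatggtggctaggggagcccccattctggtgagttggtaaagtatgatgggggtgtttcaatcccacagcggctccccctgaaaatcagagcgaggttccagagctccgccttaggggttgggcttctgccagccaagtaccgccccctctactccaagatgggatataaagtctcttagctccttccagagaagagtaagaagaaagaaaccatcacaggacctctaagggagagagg

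The Ngp and Fpr2 windows held 3 C/EBP-like matches each, that of S100a9 held 2, and those of Mpo and Epx held 0. The motif was found in 18 of the 31 member windows (58.1%), against 40.7% of 32851 RefSeq windows. An ETS-like motif (GAGGAA, both strands) was found in 21 member windows (67.7%), against 28.3% of all windows. A RUNX-like motif (TGTGGT, both strands) was found in 7 (22.6%), against 16.8% of all. In the 5 windows shown, no match to one motif overlapped a match to another. These are matches of letters only.

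The library totals ran from 18894996 to 36108962 counts. The 12 cochlea markers summed to 4155 to 6987 CPM, counts scaled to the size of the library, in every library, and Coch alone was at 2994 to 5648 CPM. One library, night noise ADX a, held 9659 CPM of 8 pituitary and cerebellar transcripts. Night noise sham-operated b and day sham exposure sham-operated b held 111 and 130 CPM of them, and each call of a member below is also given without these 3 libraries. Night noise ADX c, which stayed in, held 171 CPM, and the other 20 libraries held 24 to 98.8 CPM.

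The 35 members took 0.817% to 1.54% of all counts in a library, with a median of 1.01%. Day noise sham-operated c had the lowest share and day noise ADX b the highest. Per kilobase of exon, S100a9 was the highest member, at a mean of 4740 CPM per kb over the 24 libraries. S100a8 followed at 1751 CPM per kb, Ngp at 1175 and Camp at 631. Stfa2l1 was the lowest, at 2.31 CPM per kb, so members differed in level by over 3 orders of magnitude. The products of the early (azurophil) and of the late (secondary) granules were both present in every library, as were the receptors of mature cells.

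**Figure D1:**
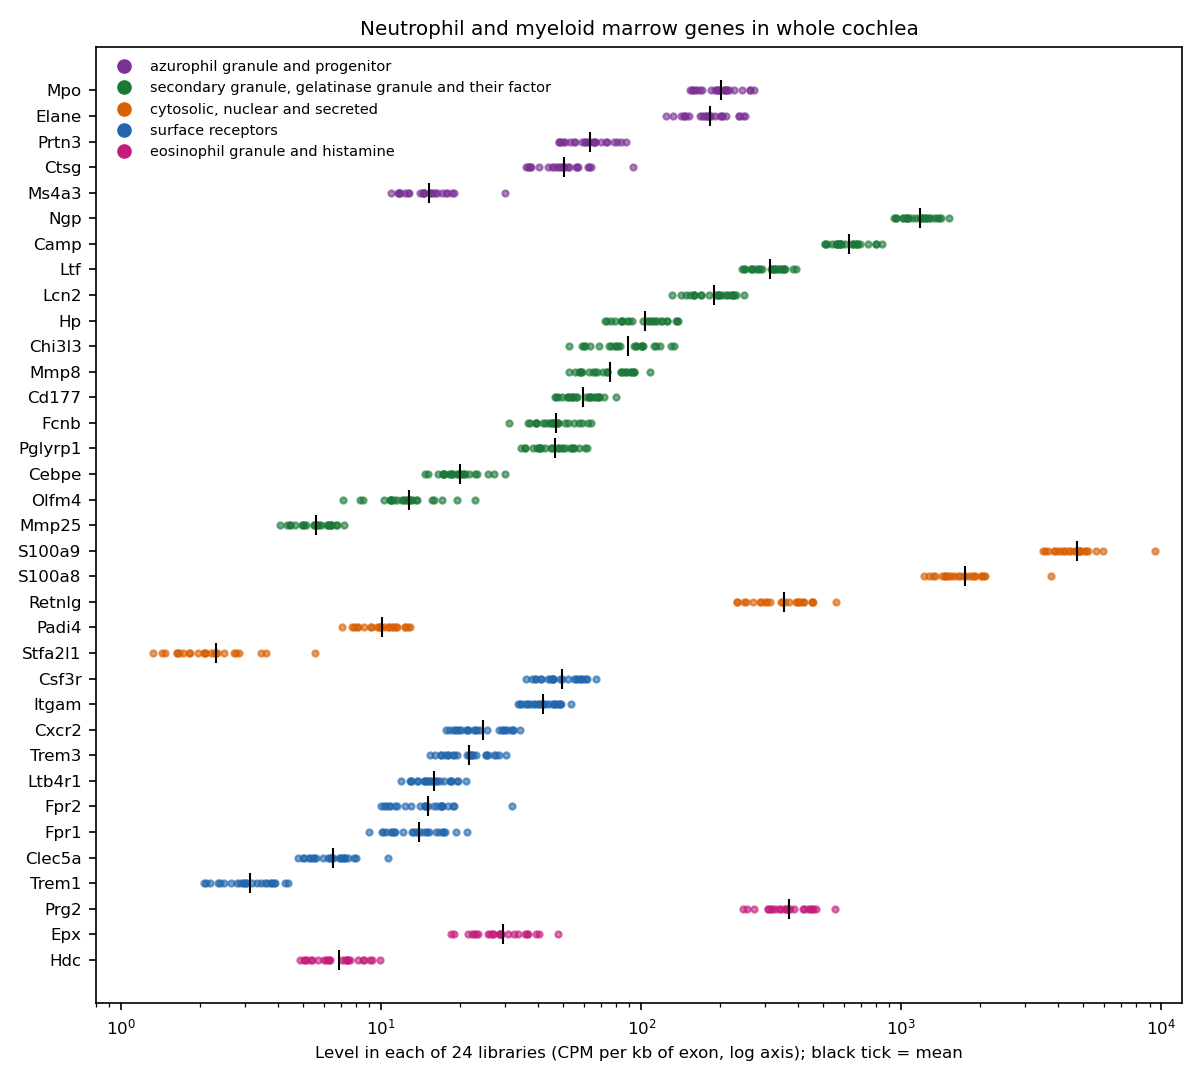
Level of each of the 35 members in CPM per kilobase of exon (log axis) in the 24 libraries (points, coloured by role), with the mean as a black tick. S100a9 (4740 CPM per kb) and S100a8 (1751) stand highest and Stfa2l1 (2.31) lowest, and 1 point lies far to the right of the others for S100a9, S100a8 and Fpr2.

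Among the azurophil genes, Mpo, the enzyme that makes hypochlorous acid, had the highest count. At night it was at 635, 684 and 562 CPM in noise ADX, 584, 718 and 576 in sham exposure ADX, 716, 655 and 526 in noise sham-operated, and 931, 538 and 540 in sham exposure sham-operated libraries. By day it was at 668, 838 and 893 CPM in noise ADX, 553, 727 and 688 in sham exposure ADX, 733, 711 and 671.5 in noise sham-operated, and 747, 895 and 778 in sham exposure sham-operated libraries. The highest value was that of night sham exposure sham-operated a, whose own group held it far above the other two libraries. The neutrophil elastase gene Elane ranged from 122 to 245 CPM, the proteinase 3 gene Prtn3 from 83.5 to 151 and the cathepsin G gene Ctsg from 37.3 to 95.6. Ms4a3, a membrane protein of granulocyte and monocyte progenitors, ranged from 20.5 to 56.2 CPM.

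Of the secondary and gelatinase granule genes, Ngp, a cystatin-like granule protein, was the highest. At night it was at 1496, 1441 and 1141 CPM in noise ADX, 1239, 1241 and 1463 in sham exposure ADX, 1514, 1456 and 1299 in noise sham-operated, and 1703, 1397 and 1520 in sham exposure sham-operated libraries. In day libraries it was at 1295, 1734 and 1863 CPM in noise ADX, 1163, 1628 and 1277 in sham exposure ADX, 1559, 1284 and 1160 in noise sham-operated, and 1340, 1569 and 1671 in sham exposure sham-operated libraries. Each group overlapped with others. Ltf (lactoferrin, which binds iron) ranged from 839 to 1358 CPM, Camp (cathelicidin, an antimicrobial peptide) from 386 to 636, and Lcn2 (lipocalin 2, which binds bacterial siderophores) from 345 to 652. Cebpe, the factor needed for these granules, ranged from 18.2 to 37.0 CPM. Fcnb (ficolin B, a lectin) was at 41.5 to 86.0 CPM, Pglyrp1 (a peptidoglycan-binding protein) at 63.5 to 114, Hp (haptoglobin) at 117 to 221, and Cd177, a neutrophil surface protein also held in granules, at 132 to 226. The metalloproteinases Mmp8 and Mmp25 were at 128 to 261 and 21.7 to 37.9 CPM, and Olfm4, a granule glycoprotein of a subset of neutrophils, at 21.0 to 67.8. Chi3l3, a chitinase-like protein, was at 86.2 to 218 CPM, and reads it shares with a close paralog make its count uncertain.

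Of the cytosolic, nuclear and secreted products, S100a9, a subunit of calprotectin, was the highest. At night it was at 2547, 2323 and 1908 CPM in noise ADX, 2032, 2208 and 2484 in sham exposure ADX, 2644, 2552 and 2295 in noise sham-operated, and 2924, 2399 and 2519 in sham exposure sham-operated libraries. The day values were 2022, 4929 and 3099 CPM in noise ADX, 1868, 2446 and 2091 in sham exposure ADX, 2515, 2218 and 1827 in noise sham-operated, and 2140, 2678 and 2721 in sham exposure sham-operated libraries. Day noise ADX b stood above all the others. Its partner S100a8 ranged from 851 to 2605 CPM, with the highest value in the same library. Retnlg (resistin-like gamma) ranged from 139 to 331 CPM and Padi4, which turns arginine of histones into citrulline, from 34.2 to 62.1. Stfa2l1, of the stefin A protease inhibitors, had 13 to 82 counts (0.555 to 2.33 CPM), and its reads may be shared with other stefin A genes.

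Of the surface receptors, Itgam, the integrin alpha chain also called CD11b, was the highest by count. At night it was at 210, 195 and 173 CPM in noise ADX, 189, 194 and 210 in sham exposure ADX, 233, 229 and 206 in noise sham-operated, and 242, 201 and 232 in sham exposure sham-operated libraries. The day values were 183, 239 and 270 CPM in noise ADX, 171, 222 and 180 in sham exposure ADX, 216, 204 and 169 in noise sham-operated, and 184, 244 and 246 in sham exposure sham-operated libraries. Itgam had the smallest spread within groups of all members. Csf3r, the receptor of the growth factor G-CSF, ranged from 130 to 242 CPM, Cxcr2, a chemokine receptor that draws neutrophils out of marrow, from 54.0 to 104, and Ltb4r1, a leukotriene receptor, from 16.5 to 29.5. The formyl peptide receptors Fpr1 and Fpr2 were at 11.9 to 28.3 and 12.9 to 41.3 CPM, the lectin receptor Clec5a at 18.4 to 40.6, and the activating receptors Trem1 and Trem3 at 6.21 to 13.1 and 15.4 to 30.0. In the eosinophil and histamine set, Prg2 (eosinophil major basic protein) was at 206 to 465 CPM, Epx (eosinophil peroxidase) at 50.5 to 131, and Hdc (histidine decarboxylase, which makes histamine) at 31.1 to 63.3.

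Libraries of the same group differed more in these genes than in the median gene. The median SD within groups was 0.233 on the log2 CPM scale over the members, from 0.184 for Itgam to 0.395 for Stfa2l1, against a median of 0.133 over all genes tested. In several groups 1 library was lowest or highest for nearly all members. Day noise ADX a was the lowest library of its group for 35 of 35 members, day sham exposure ADX b the highest of its group for 34, and day noise sham-operated c the lowest of its group for 33. Night sham exposure ADX was split, with libraries a, b and c highest for 4, 13 and 18 members and lowest for 23, 6 and 6. Of the 24 libraries, day noise ADX c held the highest value for 14 members and day noise ADX b for 10, while day noise sham-operated c held the lowest for 15 and night noise ADX c for 11. The mean of the members, each centred on its own mean, was -0.19, 0.47 and 0.38 (log2) in day noise ADX a, b and c. Most members thus rose and fell together by library. The counts of members above or below 0 given further on are not counts of independent observations.

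**Figure D2:**
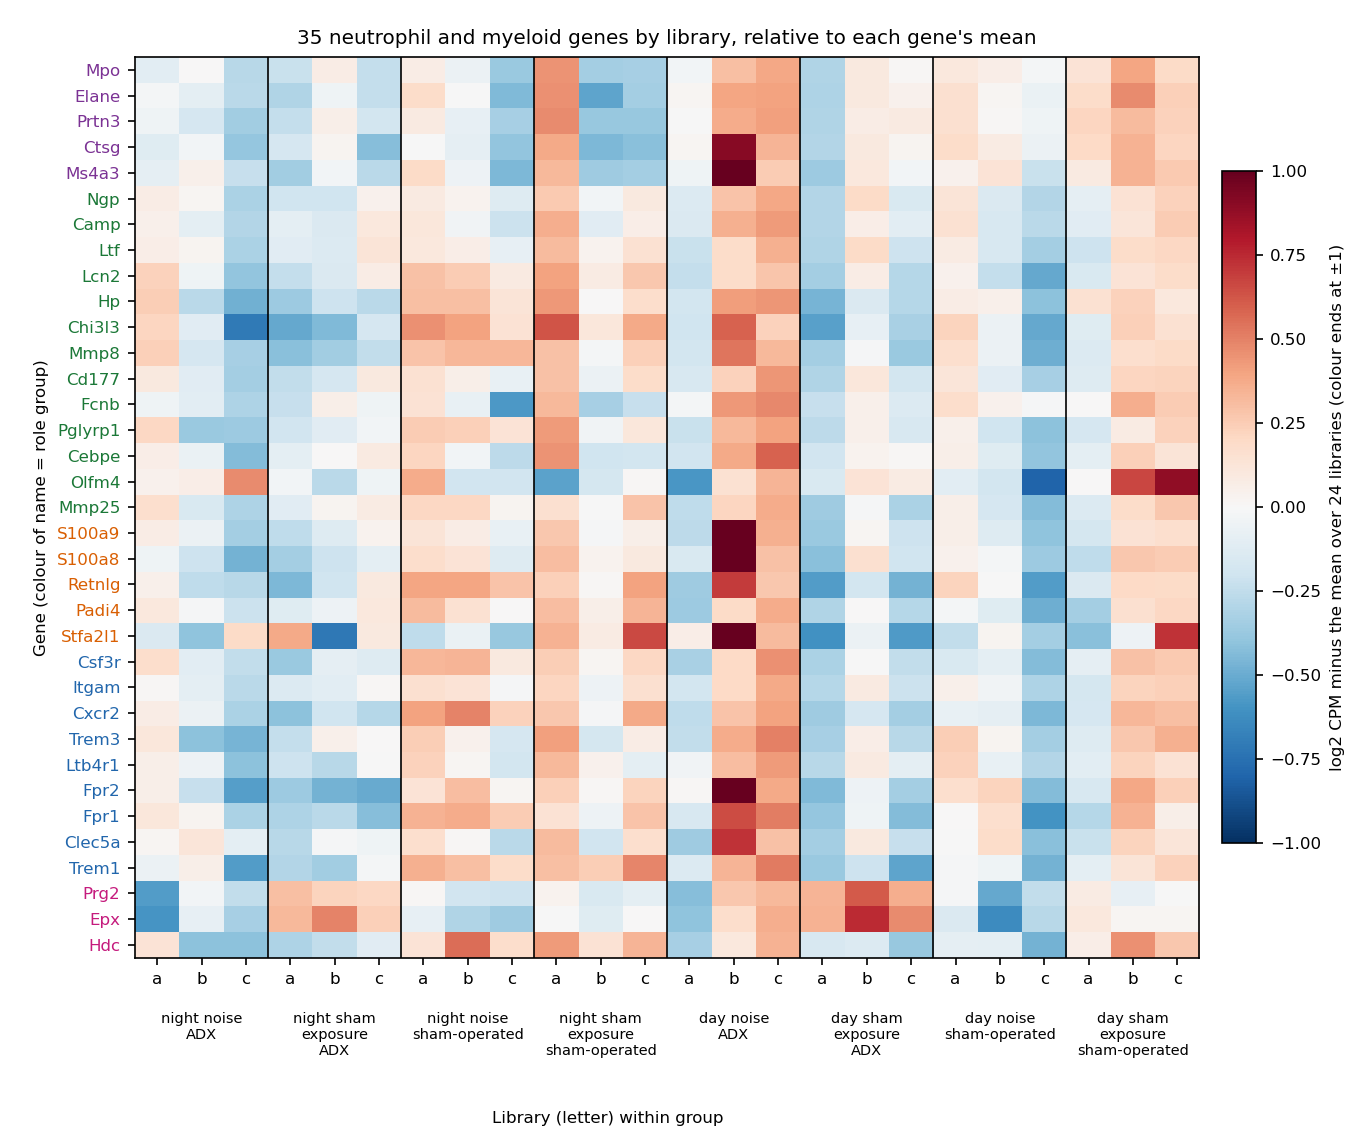
Log2 CPM of each member minus its mean over the 24 libraries (colour, ends at -1 and 1), with libraries in columns by group and members in rows by role. Day noise ADX b and c are above the mean for most members and day noise ADX a and day noise sham-operated c below it, while the rows of Prg2 and Epx follow another pattern.

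Over both periods and both operations, Epx and Prg2, genes of the eosinophil granule, fell in noise-exposed cochleae, while 0 members rose. Epx was at 51.9, 73.6 and 62.1 CPM in night noise ADX, against 97.8, 110 and 91.9 in night sham exposure ADX libraries, and all 3 noise values were lower. It was at 73.6, 63.4 and 61.0 CPM in night noise sham-operated, against 77.6, 71.6 and 78.3 in night sham exposure sham-operated libraries, where the groups overlapped. By day it was at 59.2, 88.3 and 100 CPM in noise ADX, against 99.4, 131 and 108 in sham exposure ADX libraries, and day noise ADX c reached into the range of the sham exposure. In day noise sham-operated libraries it was at 70.5, 50.5 and 64.5 CPM, against 83.8, 78.9 and 79.0 with sham exposure, and all 3 noise values were lower. The mean was 68.2 ± 14.4 CPM with noise and 92.3 ± 17.6 CPM with sham exposure (SD, n = 12 each). The log2 change was -0.43 (SE 0.0795, adjusted p = 0.00216 by edgeR's quasi-likelihood test).

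Prg2, whose product fills the core of the eosinophil granule, followed Epx. It was at 206, 299 and 257 CPM in night noise ADX, against 374, 354 and 350 in night sham exposure ADX libraries, with all noise values lower. It was at 307, 266 and 263 CPM in night noise sham-operated, against 311, 273 and 284 in night sham exposure sham-operated libraries, which overlapped. By day it was at 226, 366 and 381 CPM in noise ADX, against 384, 465 and 392 in sham exposure ADX libraries, all noise values again lower, the nearest pair by little. In day noise sham-operated libraries it was at 302, 213 and 257 CPM, against 323, 287 and 303 with sham exposure, and 1 noise value lay within the range of the sham exposure. Prg2 averaged 279 ± 55.1 CPM with noise and 342 ± 56.0 CPM with sham exposure (SD, n = 12 each), a log2 change of -0.29 (SE 0.0785, adjusted p = 0.0376 by the same test). Over the 4 pairs of groups its log2 change ran from -0.50 to only -0.05.

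The members past the threshold of an adjusted p of 0.05 were thus 2 of 35, both lower. Of all genes tested 4.81% passed it (2.40% higher, 2.40% lower). The median log2 change over the 35 members was 0.02, against -0.00038 over all genes. Without the 3 libraries set aside for pituitary or cerebellar transcripts Epx was at -0.39 (adjusted p = 0.0137) and Prg2 at -0.26 (adjusted p = 0.115). When each library was left out in turn, Epx passed in all 24 fits (adjusted p between 0.00082 and 0.00569). Prg2 passed in 10 of them, and its highest adjusted p was 0.0748, without day noise sham-operated b. Other markers of eosinophils, basophils and mast cells did not pass: 0 of 15 tested, with 9 above 0, and a summed level over the 16 markers of 122 to 243 CPM (median 153) with noise and 153 to 207 CPM (median 173) with sham exposure. In day ADX alone 9 of these 15 were above 0 with noise, with a median of 0.27, 5 were higher at an unadjusted p under 0.05 and 0 were lower. Their part in the fall of Epx and Prg2 was not tested. Within a period and operation the fall of Epx did not pass by itself. Its log2 change was -0.68 in night ADX (adjusted p = 0.0630), -0.45 in day ADX (0.102), -0.38 in day sham-operated (0.514) and -0.20 in night sham-operated libraries (0.825), all by edgeR's quasi-likelihood test. Its interaction of noise with surgery, averaged over the periods, was -0.27 (adjusted p = 0.661). A difference of the averaged noise effect between the operations was thus not detectable at this depth and number.

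**Figure D3:**
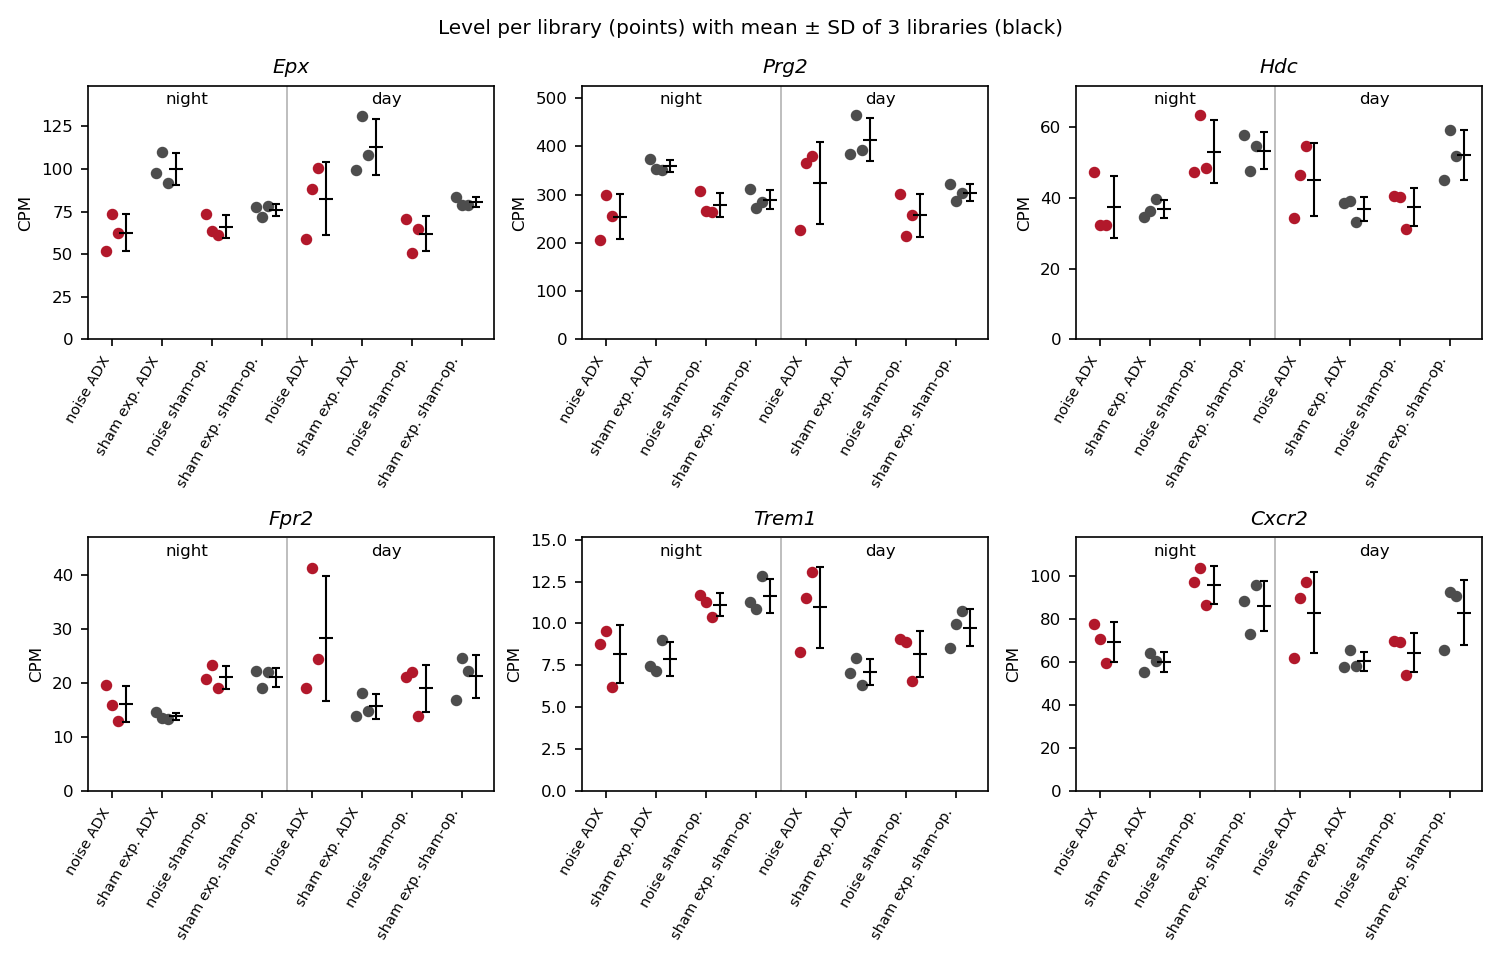
CPM of Epx, Prg2, Hdc, Fpr2, Trem1 and Cxcr2 in each library (points, red for noise and grey for sham exposure) with the mean and SD of 3 libraries in black, by group. Epx and Prg2 are highest in the sham exposure ADX groups of both periods, and Fpr2 has 1 point at 41.3 CPM in day noise ADX.

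After adrenalectomy, Epx and Hdc passed in opposite directions. The set they were listed in joins genes of eosinophils with 1 of histamine synthesis and does not stand for 1 cell type. Across the 24 libraries Hdc followed the mean of the members (Pearson r = 0.767) far more closely than Epx (0.129) and Prg2 (0.182) did. Over both periods and exposures Epx rose to 89.5 ± 23.6 CPM in ADX, against 71.1 ± 9.60 CPM in sham-operated cochleae (SD, n = 12 each; log2 change 0.30, SE 0.0794, adjusted p = 0.0383 by edgeR's quasi-likelihood test). The values by library, given above, put all 3 ADX libraries above the 3 sham-operated ones with sham exposure, by night and by day, where the log2 changes were 0.40 and 0.49. With noise the groups overlapped, at -0.08 by night and 0.42 by day. Prg2 had a log2 change of 0.24 and did not pass (adjusted p = 0.109).

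Hdc fell. It was at 47.3, 32.4 and 32.3 CPM in night noise ADX, against 47.2, 63.3 and 48.5 in night noise sham-operated libraries. It was at 34.7, 36.3 and 39.7 CPM in night sham exposure ADX, against 57.8, 47.7 and 54.5 in night sham exposure sham-operated libraries. In day libraries it was at 34.2, 46.3 and 54.7 CPM in noise ADX, against 40.5, 40.3 and 31.1 in noise sham-operated libraries, and at 38.5, 39.2 and 33.1 in sham exposure ADX, against 45, 59.0 and 51.9 in sham exposure sham-operated libraries. With sham exposure all 3 ADX libraries lay below the 3 sham-operated ones in both periods, and with noise the groups overlapped in both. Hdc averaged 39.1 ± 7.03 CPM in ADX and 48.9 ± 9.11 CPM in sham-operated cochleae (SD, n = 12 each), a log2 change of -0.31 (SE 0.0841, adjusted p = 0.0446 by edgeR's quasi-likelihood test).

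In this comparison 1 member rose and 1 fell of 35, while 3.20% of all genes passed (1.68% higher, 1.52% lower). Both calls were near the threshold. With each library left out in turn, Epx passed in 7 of 24 fits and Hdc in 6. The highest adjusted p was 0.0795 for Epx (night noise sham-operated c left out) and 0.0873 for Hdc (day noise sham-operated a left out). Without the 3 libraries named above Epx was at 0.32 (adjusted p = 0.0435) and Hdc at -0.30 (adjusted p = 0.0259). Of the 35 members, 27 had a log2 change below 0, Hdc included, with a median of -0.08 over all members, against -0.00014 over all genes. All 9 surface receptors were below 0, with a median of -0.16, and 0 of them passed. Cxcr2 was at 68.2 ± 13.5 CPM in ADX and 82.4 ± 15.4 CPM in sham-operated cochleae (SD, n = 12 each; -0.27, adjusted p = 0.0652), Trem1 at -0.26 (adjusted p = 0.0982), and Chi3l3 at -0.33 (adjusted p = 0.121). At an unadjusted p under 0.05, 2 members were higher and 7 lower (8.23% and 8.63% of all genes).

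The direction of the whole list turned with the group. With sham exposure, 32 of 35 members were below 0 by night (median -0.23) and 33 by day (median -0.30) in ADX relative to sham-operated cochleae. With noise at night 32 were below 0 (median -0.16). With noise by day 35 of 35 were above 0 (median 0.33), where 49.9% of all genes were. Most members moved together by library, so these counts are not of independent observations. The mean of the centred members (log2) was -0.19, 0.47 and 0.38 in day noise ADX a, b and c. In day noise sham-operated a, b and c it was 0.06, -0.07 and -0.36, so ADX a lay below 2 of these. In each of the 4 comparisons 0 members passed. At an unadjusted p under 0.05, 10 members were lower with sham exposure at night (7.18% of all genes), 8 with sham exposure by day (5.44%) and 8 with noise at night (4.81%), and 13 were higher with noise by day (5.58%). In the other direction Epx and Prg2 were higher with sham exposure by day, 2 members (5.88%), and Epx with sham exposure at night, 1 member (7.74%). In libraries that did not overlap, 11 members were lower with sham exposure at night (10.9% of all genes), 9 with sham exposure by day (8.83%), 5 with noise at night (4.99%), and 1 was higher with noise by day (5.90%). With sham exposure Epx and Prg2 were higher in every ADX library, both at night (11.4% of all genes) and by day (10.1%). The shares of all genes past the adjusted threshold were 1.58%, 0.0422%, 0% and 0% in the same order.

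Markers of B-cell precursors moved with adrenalectomy in the same libraries. Of 14 tested, 12 rose, with a median log2 change of 0.47, among them Rag1 (0.60) and Rag2 (0.67), which cut immunoglobulin gene segments, the interleukin receptor Il7r (0.45) and the adaptor Blnk (0.52). Their sum over 14 genes was 685 to 1120 CPM (median 900) in ADX and 490 to 884 CPM (median 680) in sham-operated cochleae. Of 34 other neutrophil genes tested, 3 fell: the lectin receptor Clec4d (-0.65), the decoy receptor Il1r2 (-0.88) and the metalloproteinase Adam8 (-0.29). The progenitor factor Myb rose by 0.32. Of 12 cochlea markers 2 fell, Otof (-0.33) and Tectb (-0.79), and the osteocyte gene Sost fell as well (-0.28). The part of any of these in the values of the members was not tested.

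In adrenalectomized mice, 2 receptors of mature myeloid cells were higher after noise by day. Fpr2 was at 19.0, 41.3 and 24.5 CPM in day noise ADX, against 13.9, 18.2 and 14.9 in day sham exposure ADX libraries. Every noise value lay above every sham exposure value, though day noise ADX a cleared the highest of them by little. Its mean was 28.3 ± 11.6 CPM with noise and 15.7 ± 2.27 CPM with sham exposure (SD, n = 3 each), a log2 change of 0.86 (SE 0.224, adjusted p = 0.0368 by edgeR's quasi-likelihood test). Trem1 was at 8.33, 11.5 and 13.1 CPM in day noise ADX, against 7.06, 7.93 and 6.33 in day sham exposure ADX libraries, again with no overlap. Its mean was 11 ± 2.42 CPM with noise and 7.10 ± 0.802 CPM with sham exposure (SD, n = 3 each), a log2 change of 0.63 (SE 0.169, adjusted p = 0.0400). Outside this pair the highest Fpr2 value was 24.7 CPM. Fpr2 was at 19.6, 16 and 12.9 CPM in night noise ADX, 14.6, 13.5 and 13.3 in night sham exposure ADX, 20.7, 23.3 and 19.1 in night noise sham-operated, and 22.2, 19.0 and 22.0 in night sham exposure sham-operated libraries. In day noise sham-operated libraries it was at 21.1, 22.0 and 14.0 CPM, against 16.9, 24.7 and 22.2 in day sham exposure sham-operated ones.

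Of the 35 members 2 rose and 0 fell in this comparison, while 4.02% of all genes passed (2.01% higher, 2.01% lower). In direction, 32 of 35 members were above 0, where 47.5% of all genes were, with a median log2 change of 0.34 against -0.01. Most members moved together by library, and day noise ADX a was the lowest of its group for 35 of 35. The count is therefore not independent support for the 2 calls. At an unadjusted p under 0.05, 18 members were higher and 2 lower, against 11.9% and 11.6% of all genes. Fpr2, Trem1 and Stfa2l1 were the 3 members higher in every noise library (12.2% of all genes), and Prg2 the 1 lower in every one (13.7%). The 3 members below 0 were Epx, Prg2 and Olfm4. S100a9 averaged 3350 ± 1470 CPM with noise and 2135 ± 292 CPM with sham exposure (0.65, adjusted p = 0.0818), and Cxcr2 83.0 ± 18.8 and 60.4 ± 4.36 CPM (0.46, adjusted p = 0.0955; SD, n = 3 each).

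These calls turned on single libraries. Without day noise ADX a, 20 members passed, with Fpr2 at 1.08 (adjusted p = 0.00408) and Trem1 at 0.80 (0.00512). Without any other of the 6 libraries 0 passed. Without day noise ADX b, Fpr2 was at 0.47 (adjusted p = 0.227), and without day noise ADX c, Trem1 was at 0.49 (adjusted p = 0.198). Without the 3 libraries set aside for pituitary or cerebellar transcripts, none of them in this pair, Fpr2 had an adjusted p of 0.0358 and Trem1 one of 0.0532. When the 2 groups were fitted alone, the adjusted p was 0.102 for Fpr2 and 0.0905 for Trem1, and 0 members passed.

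Genes of other blood and marrow lists passed in the same pair. Of 34 other neutrophil genes 3 rose, the chemokine receptor Ccr1 (0.72), Clec4d (0.89) and the protease inhibitor Serpinb1a (0.54), with a median of 0.37 over the list. The factor Cebpb rose by 1.20, and the adhesion molecules Sele and Vcam1, which bind leukocytes on endothelium, by 0.91 and 0.54. Of 14 macrophage markers 4 rose, Aif1 (0.65) and the complement genes C1qa (0.47), C1qb (0.56) and C1qc (0.52), and their sum was 999 to 1305 CPM with noise and 896 to 943 CPM with sham exposure. Of 12 erythroid markers 1 rose, Car1 (0.92), and the sum of 16 was 5333 to 6004 CPM with noise and 3690 to 4572 CPM with sham exposure. The bone genes Acp5 (0.80) and Dmp1 (0.68) rose and the cochlear gene Otogl fell (-0.52). Of 14 B-cell precursor markers 0 passed and 12 were below 0 (median -0.20), and their sum was 752 to 898 CPM with noise and 909 to 1100 CPM with sham exposure. Of 10 skeletal muscle markers 0 passed and 10 were below 0 (median -2.15), with a sum of 28.4 to 37.1 CPM with noise and 27.0 to 101 CPM with sham exposure. Fpr2 and Trem1 are also made by monocytes and macrophages, and the part of these cells in the rise was not tested.

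In the other 3 pairs 0 members passed. In day sham-operated mice 0 of 35 members were above 0 (47.5% of all genes were), with a median of -0.21, and 0 passed (0.247% of all genes). There 9 members were lower in every noise library (5.82% of all genes) and 5 were lower at an unadjusted p under 0.05 (3.22%). In night ADX mice 20 members were above 0 (median 0.01), 0 passed (0.500% of all genes), and 2, Epx and Prg2, were lower at an unadjusted p under 0.05 (5.18%). In night sham-operated mice 11 were above 0 (51.7% of all genes; median -0.05), 0 passed (0.717%), and 0 differed at an unadjusted p under 0.05 (4.32% of all genes higher, 4.09% lower). Over all genes, 47.5% to 51.7% were above 0 in the comparisons of a pair of groups. In the night sham-operated pair the neutrophil chemoattractant Cxcl1 rose by 2.63 and Cebpb by 1.06. Cxcl1 was at a low level there, with a mean of 0.784 CPM with noise and 0.123 CPM with sham exposure. In night sham-operated mice Trem1 was at 11.7, 11.3 and 10.4 CPM with noise and 11.3, 10.9 and 12.8 CPM with sham exposure. In night ADX mice it was at 8.79, 9.54 and 6.21 with noise and 7.45, 7.18 and 9.04 with sham exposure. Day values were 9.05, 8.87 and 6.59 CPM with noise and 8.56, 10 and 10.7 CPM with sham exposure in sham-operated mice. The groups overlapped in each of these pairs. Over all groups the chemoattractants Cxcl1 (1.28), Ccl3 (0.73) and the cytokine Il1a (0.42) rose with noise, 3 of 13 tested in their list. Across the 24 libraries Cxcl1 ranged only from 0.106 to 1.55 CPM and Ccl3 from 0.250 to 1.58 CPM, so both rest on few counts. Of other lists, the factor Cebpb (0.84), the macrophage genes Aif1 (0.27) and C1qb (0.24) and the osteocyte gene Dmp1 (0.34) rose with noise over all groups, and the gap junction gene Gjb2 fell (-0.25). Il17a was at 0 counts in every library, and the growth factors Csf3 and Csf2 had a median of 0.

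**Figure D4:**
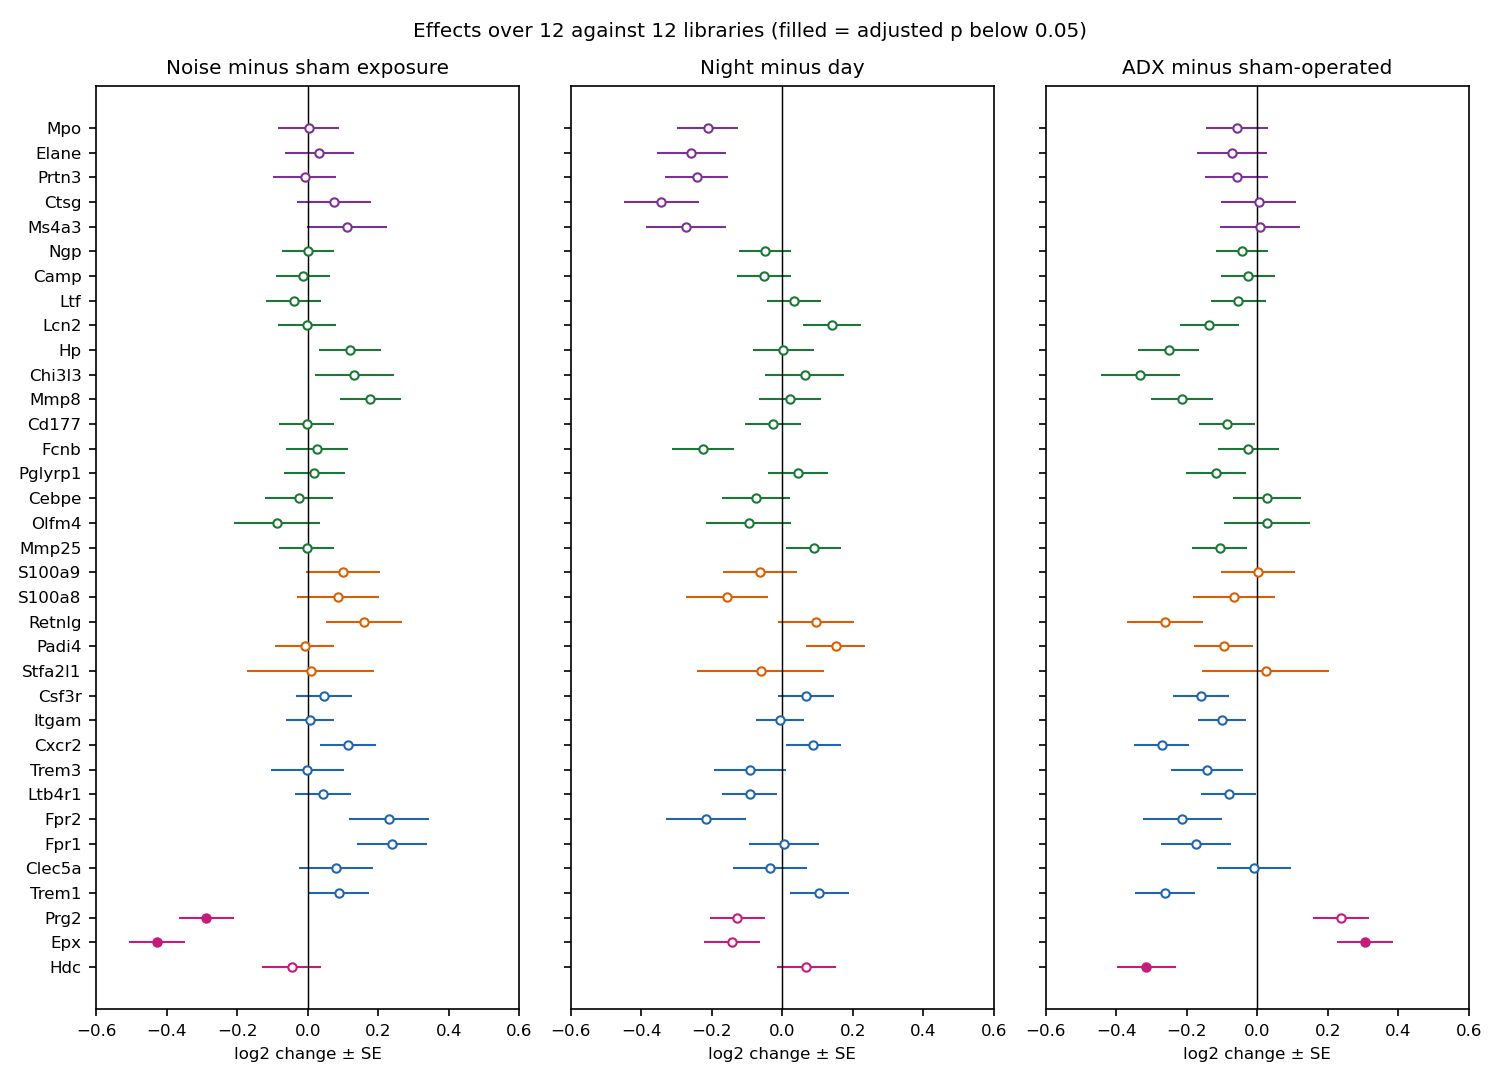
Log2 change with its standard error for each of the 35 members in 3 comparisons over all 24 libraries: noise minus sham exposure, night minus day, and ADX minus sham-operated (filled points: adjusted p below 0.05). Epx (-0.43) and Prg2 (-0.29) are filled for noise, Epx (0.30) and Hdc (-0.31) for ADX, and 0 members for night.

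The azurophil genes had lower means at night than by day, but 0 members passed the test. Over both exposures and operations all 5 azurophil genes had a log2 change below 0, and they did so in each of the 4 pairs of groups as well. Ctsg was at 46.8, 50.0 and 39.0 CPM in night noise ADX, against 51.4, 95.6 and 64.2 in day noise ADX libraries, with no overlap. It was at 45.4, 51.9 and 37.8 CPM in night sham exposure ADX, against 41.6, 54.5 and 52.0 in day sham exposure ADX libraries. It was at 50.6, 47.7 and 38.6 CPM in night noise sham-operated, against 57.8, 53.9 and 48.9 in day noise sham-operated libraries, and at 66.0, 37.3 and 38.1 in night sham exposure sham-operated, against 58.4, 64.7 and 59.1 in day sham exposure sham-operated libraries. The first pair alone did not overlap. Ctsg averaged 45.8 ± 8.45 CPM at night and 58.5 ± 13.3 CPM by day (SD, n = 12 each; log2 change -0.34, SE 0.106, adjusted p = 0.0587 by edgeR's quasi-likelihood test). Mpo averaged 639 ± 115 CPM at night and 742 ± 98.8 CPM by day (-0.21, adjusted p = 0.159). Elane was at -0.26 (adjusted p = 0.131), Prtn3 at -0.24 (0.119) and Ms4a3 at -0.27 (0.166), and the lectin gene Fcnb of the secondary set was at -0.23 (0.136).

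Those 6 were the members lower at an unadjusted p under 0.05 (9.49% of all genes were), and 0 were higher (11.8%). By edgeR's quasi-likelihood test 0 of 35 passed, while 6.01% of all genes did; DESeq2 called 1 and limma voom with library weights 5. Without night sham exposure sham-operated a, the library with the highest Mpo, 5 passed, and without day noise ADX a 1 passed. The median over all members was -0.05, with the secondary set at 0.0018 and the receptors at -0.0062. Of other lists, the basophil protease genes Mcpt8 (-0.51) and Prss34 (-0.47) and the macrophage genes Aif1 (-0.30), Cx3cr1 (-0.25) and Mrc1 (-0.25) fell at night. G0s2 (0.43), a lipase inhibitor high in neutrophils, the adhesion molecule Selp (0.25) and the progenitor receptor Flt3 (0.16) rose. The bone genes Ctsk (0.50) and Mepe (0.27) and the muscle gene Actn3 (0.45) rose as well, and the potassium channel gene Kcne1 fell (-0.19).

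Between pairs the list went in different directions. In noise-exposed ADX mice 34 of 35 members were lower at night (median -0.37), 17 of them at an unadjusted p under 0.05 (8.52% of all genes) and 4 in every library (6.62%), and 0 passed (0.620%). The smallest adjusted p there was that of Fpr2 (-0.81, adjusted p = 0.0910). In noise-exposed sham-operated mice 28 were higher at night (median 0.17), 9 at an unadjusted p under 0.05 (8.23%) and 11 in every library (1661 of 16607 genes were), and 0 passed (1.12%). Cxcr2 was at 97.4, 104 and 86.6 CPM at night and 69.8, 69.4 and 54.0 CPM by day in that pair, without overlap (0.58, adjusted p = 0.0804). In the sham exposure groups 17 members were above 0 in ADX (0 of 35 passed, 0.0181% of all genes) and 22 in sham-operated mice (0 passed, 0.265%). At an unadjusted p under 0.05, 0 members differed in ADX (3.27% of all genes higher, 2.98% lower) and 1 was lower in sham-operated mice (4.60%). The comparisons of night with day and of noise with sham exposure in ADX mice share the day noise ADX libraries, as do those of ADX with sham-operated mice.

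Interactions were tested with each averaged over the levels of the third factor, and 0 members passed in any. Differences between single pairs of groups were not tested. For noise by surgery 33 of 35 members were above 0 (49.3% of all genes), with a median of 0.33, and 12 had an unadjusted p under 0.05 (3.53%). A value above 0 means that the change with noise, averaged over the periods, was higher in ADX than in sham-operated mice. The smallest adjusted p was 0.369, for Trem1 (0.50), and Fpr2 was at 0.62 (adjusted p = 0.417). For period by surgery 32 were below 0 (median -0.27), 11 at an unadjusted p under 0.05 (3.11%). For noise by period 8 were above 0, and 1, Olfm4 (0.73), had an unadjusted p under 0.05 (3.29% of all genes higher). The share of all genes on each side of 0 is not given for period by surgery or noise by period. Over all genes 0%, 0% and 0.00602% passed in these tests.

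Ratios between members show which of them kept step with each other. They were chosen after values were seen and are given as descriptions. Ltf over Ngp lay between 0.688 and 0.794 in all 24 libraries, Camp over Ngp between 0.304 and 0.358, Elane over Prtn3 between 1.47 and 1.81, and Epx over Prg2 between 0.232 and 0.311. S100a9 over S100a8 lay between 1.86 and 2.27. Both of these left the secondary set in 1 library: S100a9 over Ngp was 2.84 in day noise ADX b and 1.503 to 1.78 in the other 23, and S100a8 over Ngp was 1.503 there and 0.709 to 0.906 in the other 23. Ltf over Ngp was 0.696 in the same library, within the range of the others. Epx over Ngp was 0.0628 to 0.0888 in the 6 ADX libraries with sham exposure and 0.0347 to 0.0625 in the other 18, the nearest pair apart by little. Prg2 over Ngp overlapped in the same split, at 0.239 to 0.331 against 0.138 to 0.241. The azurophil sum over that of Ltf, Camp and Ngp was 0.258 to 0.411 at night (median 0.333) and 0.334 to 0.430 by day (median 0.388), with an overlap.

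**Figure D5:**
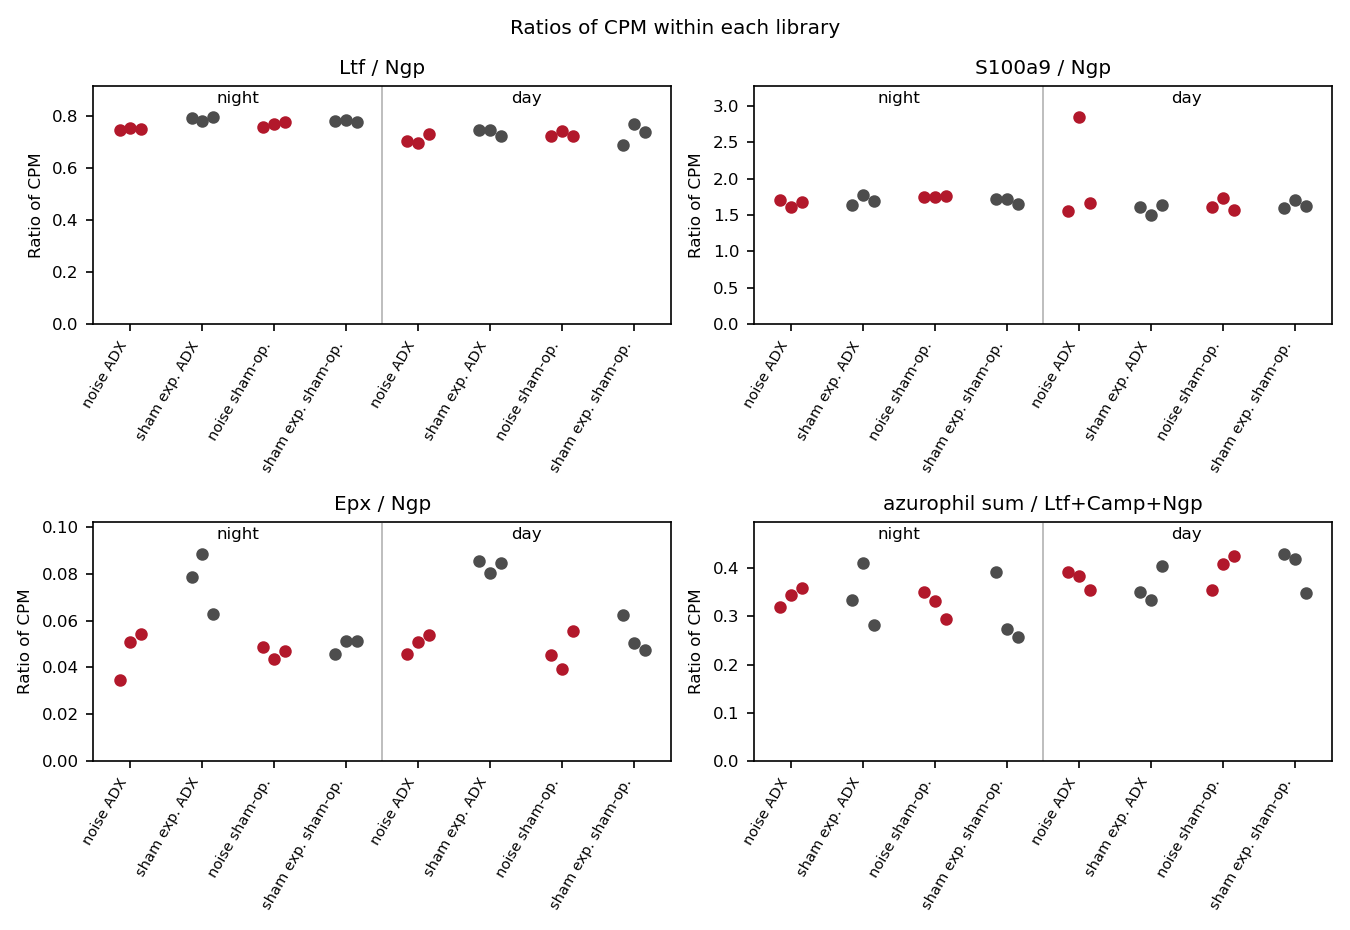
Ratios of CPM between members in each library by group, for Ltf over Ngp, S100a9 over Ngp, Epx over Ngp, and the azurophil sum over the sum of Ltf, Camp and Ngp (points, red for noise and grey for sham exposure). S100a9 over Ngp has 1 point at 2.84, in day noise ADX b, and Epx over Ngp is highest in the ADX groups with sham exposure.

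Across the 24 libraries, which share their groups and differ in depth, Itgam (Pearson r = 0.949), Cd177 (0.943) and Ngp (0.937) followed the mean of the members most closely. The azurophil genes were at 0.674 to 0.760 and Olfm4 at 0.431. Within the eosinophil and histamine set Hdc was at 0.767, Prg2 at 0.182 and Epx at 0.129. Outside the list, the genes most like the mean over the 24 libraries included Lyz2 (0.972), Hk3 (0.954), Pgd (0.951), Adpgk (0.948), Plbd1 (0.945), Myo1f (0.941), Tyrobp (0.937), 1810033B17Rik (0.936) and Nfam1 (0.933). Lyz2 is the lysozyme of myeloid cells.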

How the data were processed

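RNA of whole cochleae was made into stranded mRNA libraries and read as single 50-base reads, per the labels. The authors deposited raw counts per gene, made with TopHat2 2.0.11 and HTSeq 0.6p1 on mm10, per the submitters' processing notes. The annotation and the strand setting of the counting are not given in the sources used here. Without them, it cannot be told how reads of overlapping antisense genes were counted. Separately, reads shared with near-identical paralogs (Chi3l3, Fpr2, Stfa2l1) cannot be told apart.

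Groups came from the sample labels. Counts of 16607 genes that passed edgeR's filterByExpr were scaled by TMM (0.974 to 1.02) and fitted with edgeR 4.0.16 (R 4.3.3; robust quasi-likelihood F-test, two-sided), with 24 libraries in 1 model and 1 coefficient per group. The 18 comparisons were 12 between pairs of groups, 3 pooled effects and 3 interactions (each averaged over the third factor), with Benjamini-Hochberg adjustment over all genes and a threshold of 0.05. A log2 change is that of the fit, and levels are CPM. Correlations used log2 CPM with a prior count of 2. Exon lengths and positions are from GENCODE (GRCm38). Alternatives used DESeq2 1.42.0, limma 3.58.1 (limma voom with library weights), relative-log-expression scaling, no filter, the replicate letter as a block, the compared groups alone, and each library left out in turn. A further one left out night noise ADX a, night noise sham-operated b and day sham exposure sham-operated b for their pituitary or cerebellar transcripts. Night noise ADX c, with 171 CPM of them, stayed in. The fit was also run on simulated counts with 200 genes changed, drawn with 1 spread for all genes and independently between genes. The members spread more than the median gene and moved together by library, so that run does not bear on their calls.

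The members and gene lists were chosen with earlier results of these data known. Every member is named with its range. Values of every library are given for members past the threshold in any comparison and for the highest member by CPM of each role, and further ones (Cxcr2, Ctsg) were chosen after values were seen. Of the other lists, genes past the threshold with the smallest adjusted p are named, up to 4 a list, except the pituitary and cerebellar genes, which are given by their sum, and Serpinb1a, Adam8, C1qa, C1qc, Vcam1, Selp, Acp5 and Otogl were named after their values were seen. In all, 6 list genes were matched under an older symbol, and Ly6g had no entry under the symbols tried. A gene that the likeness rule takes is not reported here.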

Additional observations from a re-analysis of the deposited data

Results flagged for a closer look

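With noise, Olfm4 and Stfa2l1 lay on opposite sides of the sham exposure libraries in different groups, and neither passed in any of them. Olfm4, a granule glycoprotein of a subset of neutrophils, was at 34.1, 32.2 and 21.0 CPM in day noise sham-operated, against 36.8, 58.0 and 67.8 CPM in day sham exposure sham-operated libraries. The log2 ratio of the mean CPM was -0.896, and the fitted change had an adjusted p of 0.198 by edgeR's quasi-likelihood test. It was at 37.7, 38.4 and 50.7 CPM in night noise ADX, against 36.0, 30.4 and 35.5 CPM in night sham exposure ADX libraries, a log2 ratio of the mean CPM of 0.315 (fitted change: adjusted p = 0.726 by edgeR). The noise libraries were all lower in the first pair and all higher in the second. Stfa2l1, of the stefin A protease inhibitors, was at 0.956, 2.33 and 1.14 CPM in day noise ADX, against 0.599, 0.876 and 0.617 CPM in day sham exposure ADX libraries, a log2 ratio of the mean CPM of 1.08 (fitted change: adjusted p = 0.0772 by edgeR). It was at 0.766, 0.872 and 0.701 CPM in night noise sham-operated, against 1.16, 0.965 and 1.44 CPM in night sham exposure sham-operated libraries, a log2 ratio of the mean CPM of -0.610 (fitted change: adjusted p = 0.701 by edgeR). All 3 noise values were higher in the first pair and lower in the second. The difference between the 2 pairs of groups was not tested for either gene, and Stfa2l1 rests on 13 to 82 counts a library.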

How the results depend on the processing

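None of the called changes turned its direction under the alternatives run. The fall of Epx with noise passed in all 6 alternatives and in all 24 fits without 1 library. Noise over all groups called 1 member, where the chosen test called 2, with no filter on low counts and with the replicate block. It also called 1 without the 3 libraries set aside for pituitary or cerebellar transcripts (the 3 libraries below). With 1 library left out it called 1 to 3. Noise in day ADX (2) gave 8 with DESeq2, 4 with limma voom with library weights (voom below), 1 with the replicate block, 1 without the 3 libraries, 0 with the groups alone and 0 to 20 with 1 library left out. ADX over all groups (2) gave 4 with DESeq2, 0 with no filter, 0 with the replicate block and 0 to 6 with 1 library left out (6 without night noise ADX a). ADX in night sham exposure (0) gave 4 with DESeq2, 3 with voom, 1 without the 3 libraries and 7 with the groups alone, and ADX in day sham exposure (0) gave 1 with the groups alone. ADX in day noise (0) gave 0 to 9 with 1 library left out (9 without day noise ADX a). Night against day over all groups (0) gave 1 with DESeq2, 5 with voom, 1 with the replicate block and 0 to 5 with 1 library left out. Night against day in noise ADX (0) gave 1 with DESeq2 and 0 to 14 with 1 library left out (14 without day noise ADX a), in noise sham-operated (0) 1 with DESeq2 and 3 with voom, and in sham exposure sham-operated (0) 1 with DESeq2 and 0 to 2 with 1 library left out. Noise in day sham-operated and in night ADX (0 each) gave 1 each with DESeq2, and 0 to 1 with 1 library left out in the second. The 3 interactions gave 0 throughout, and the causes were not tested.

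Same-letter libraries deviated together, with every correlation above 0.1, in 1 of 12 pairs of groups (noise in day sham-operated), where the block changed no call. In the other pairs at least 1 correlation was not above 0.1, and the labels do not say whether letters pair libraries. With the replicate block, Prg2 with noise had an adjusted p of 0.0535, Epx and Hdc with ADX 0.0554 and 0.0615, and Trem1 with noise in day ADX 0.0525. With 3 libraries a group and an SD within groups of 0.233 (log2) for the median member, small changes of these genes in 1 pair of groups are not detectable.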
